A study of Homo sapiens with 6 samples.

Results

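The p53 protein is a transcription factor that cells stabilise after DNA damage and other stress. It binds pairs of a short palindromic DNA element, the p53 half-site, and its relatives p63 and p73 can bind the same sites. Its target genes restrain division, repair DNA, adjust metabolism or lead to cell death, and several of them act back on p53 itself. The genes described here are 29 members of this pathway: the family members TP63 and TP73 and 27 target or feedback genes. They were chosen by name, without inhibitors of cyclin-dependent kinases, the BCL2 family and death receptors such as FAS, although the list holds EDA2R, a receptor of the same superfamily. All 29 were found among the 62656 genes of the deposited tables, and 26 of them passed the filter on low counts. TP63, SPATA18 and EDA2R did not pass.

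RNA was measured in OVCAR5, an established human ovarian cancer cell line. One group of 3 libraries came from cells given DMSO, the solvent control. The other group of 3 came from cells given NTX301, a DNA hypomethylating agent, at a dose of 100 nM. Treatment lasted 3 days in both groups. The labels leave unsaid whether the 3 libraries of a group are separate cultures, and the p-values then cover only the spread among these libraries, which may be technical. In bulk RNA, fewer cells of a type and less RNA per cell cannot be told apart.

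The sequences below show the p53 sites found in the promoter windows of the members, since DNA binding is what the target genes have in common. The windows run from 250 bases before to 50 bases after a gene's start and come from RefSeq (GRCh38.p14). They cover 26 of the 29 members, with 39 windows between them. A full site here is a pair of p53 half-sites with 0 to 13 bases between them and at most 2 mismatches in all, keeping the C at position 4 and the G at position 7 of each half-site. The pattern reads the same on both strands. It was present for AEN, DDB2, FDXR, MDM2 and TP73, which is 5 of 26 members (19.2%) against 3.62% of the 27305 genes with windows. Because the members were listed as p53 family or target genes, a higher share of p53 sites was built into the choice. That share is not a result of the treatment. Counted by window, 6 of the 39 member windows (15.4%) and 2.93% of all windows of this length held a full site. Overlapping MDM2 windows that hold the same site are counted separately here. Each sequence is given 5′ to 3′ on the strand of its gene, with the half-sites in capitals.
AEN: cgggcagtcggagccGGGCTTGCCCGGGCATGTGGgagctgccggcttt
DDB2: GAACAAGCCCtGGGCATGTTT
FDXR: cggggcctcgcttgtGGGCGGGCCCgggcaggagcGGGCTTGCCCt
MDM2: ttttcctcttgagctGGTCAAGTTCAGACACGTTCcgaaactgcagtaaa
TP73: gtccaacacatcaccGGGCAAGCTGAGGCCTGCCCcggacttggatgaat

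The AEN stretch lies at chr15:88621291-88621339 on the plus strand, and its site begins 34 bases before the RefSeq start. The GENCODE 29 gene begins further upstream, at position 88621296, so the same site lies inside the gene as GENCODE draws it. The DDB2 stretch, at chr11:47214979-47214999 on the plus strand, begins 5 bases after one of the annotated starts and is the only one of the 5 with 0 mismatches, a match that 0.0285% of all 35116 windows hold. The FDXR stretch lies at chr17:74872995-74873040 on the minus strand with its site 31 bases before the RefSeq start, and here too the GENCODE 29 gene begins further upstream, at position 74873031, so that it includes the site. The MDM2 stretch lies at chr12:68808908-68808957 on the plus strand, where the site begins 94 bases before a start downstream of the first one. The TP73 stretch lies at chr1:3690581-3690630 on the plus strand, 76 bases before an internal start. These are matches of letters in a window: binding was not measured, and a gene with no match in its window may hold a site elsewhere. The 5 genes did not move one way, since AEN, DDB2 and MDM2 rose, FDXR fell and TP73 did not pass the test.

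CpG, the dinucleotide that DNA methylation marks, was also counted in the promoter windows. Taking each gene's window with the most CpGs, the median was 30 CpGs for the 26 members and 16 for all genes with windows. The 27305 genes with windows include genes that were not tested here. The members were not compared with tested genes only, so the difference cannot be called particular to them. Members called higher had a median of 29.5 (12 genes, 9 to 43) and members called lower 27 (6 genes, 14 to 42), so the ranges overlapped widely. DNA methylation is not in the tables used here, and these counts are a description of sequence only.

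The libraries held 22131175 to 25743732 estimated read counts, and the 3 libraries of a group lay together on the first principal component, which carried 79.8% of the variance. On the second component (6.34%), DMSO replicate 3 lay at -34.5, away from the other DMSO libraries at 22.5 and 13.5. The summed TPM of 9 epithelial and ovarian carcinoma markers was 4267 to 4439 with DMSO and 2361 to 2445 with NTX301; of the 8 that could be tested, 1 rose and 5 fell. Most of the sum was KRT8 (2123.56 to 2203.32 TPM with DMSO and 1157.84 to 1199.33 with NTX301) and KRT18 (1744.37 to 1827.72 and 960.21 to 990.46). Another of the 9 markers, WT1, had only 3 counts with DMSO and 10 with NTX301. Marker lists of other cell types were low: the sum was 18.8 to 20.6 TPM with DMSO and 29.8 to 30.6 with NTX301 for 6 leukocyte markers, of which CD14 made up most (15.82 to 17.28 TPM with DMSO and 27.07 to 27.31 with NTX301) and was called higher. PTPRC, found on nearly all leukocytes, had 0 counts with DMSO and 7 with NTX301. It was at most 1.64 and 2.46 TPM for endothelial markers and at most 1.49 and 2.88 TPM for fibroblast markers. KRT8, KRT18, WT1, CD14 and PTPRC were singled out after their values were seen. The part of these differences in the results below was not tested.

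Levels are given below as CPM (read counts relative to library size, with edgeR's TMM factors), which compares 1 gene between libraries. TPM, which divides by transcript length, is used to compare genes with each other. A gene is called higher or lower with NTX301 where edgeR's quasi-likelihood test gave a Benjamini-Hochberg adjusted p under 0.05 over all 19029 genes tested. By this rule 14 of the 26 tested members rose (53.8%) and 7 fell (26.9%), while 5 were not called. NTX301 changed much of the transcriptome, and the background is 35.4% of all tested genes called higher and 35.1% called lower. The median log2 fold change of the members was 0.29, beside 0.00 over all tested genes. Most changes were small: the median absolute log2 fold change was 0.42 for the members and 0.49 for all genes. Only AEN rose and only TP53INP1 fell by 2-fold or more, where the background is 13.4% and 8.55% of all genes. The CPM of the 2 groups did not overlap for 22 of the 26 members, against a background of 73.7%.

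How the libraries are scaled matters for these counts. Without a scaling factor each of the 26 members had a log2 fold change higher by 0.21, as had the median of all genes, and the calls became 18 higher and 6 lower. Among all called genes the share called higher moved from 50.2% to 65.0%. With log2(TPM + 1) the median of all genes was 0.17, the share called higher was 66.7%, and 17 members were called higher and 4 lower. A small log2 change given below therefore depends on this choice, and the members whose call changed are named where they are described.

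**Figure D1:**
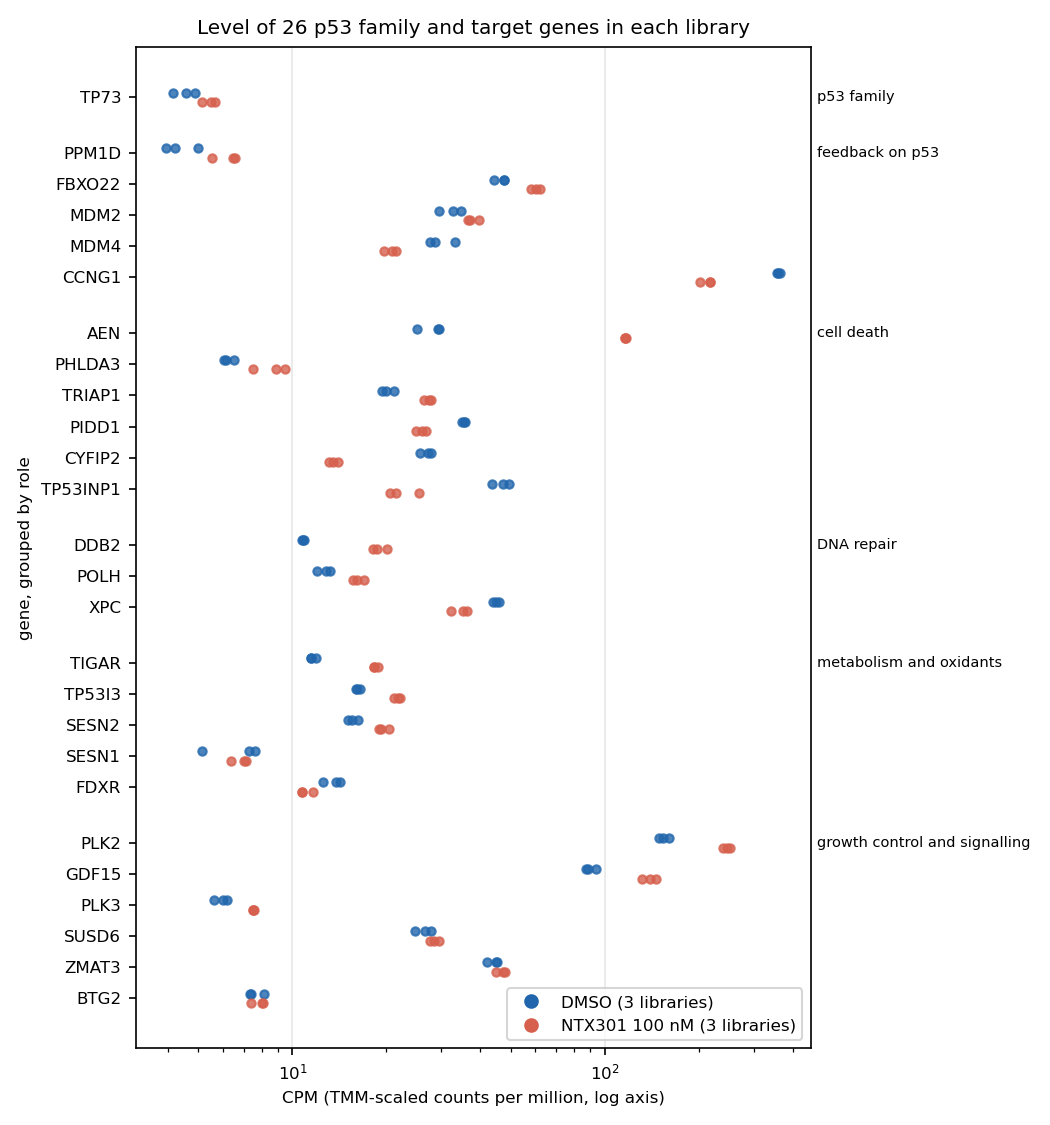
CPM of the 26 tested genes in each of the 6 libraries (log axis), grouped by role, with 3 points for DMSO and 3 for NTX301. CCNG1 is the highest with DMSO and AEN shows the widest gap, from 25 to 29.4 CPM with DMSO to 116 to 117 with NTX301.

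The family members were expressed at low levels. TP63 encodes p63, which stratified epithelia need to form. It had 5, 0 and 4 counts in the DMSO libraries and 1, 6 and 5 in the NTX301 libraries, too few to test. TP73, which encodes p73, had 4.55, 4.87 and 4.14 CPM with DMSO and 5.48, 5.63 and 5.13 with NTX301. Its groups did not overlap, but the log2 difference of 0.26 ± 0.12 (SE) missed the threshold (edgeR adjusted p = 0.0653). TP73 was called higher without a scaling factor (log2 0.46, adjusted p = 0.00331) and with log2(TPM + 1) (adjusted p = 0.0121), and had an adjusted p of 0.316 with DESeq2, the lowest and highest adjusted p over its alternatives being 0.00331 and 0.316. Part of TP73 is overlapped on the other strand by TP73-AS1, which shares 9.36% of its exon bases and had a log2 change of -0.50. No source used here says whether counting used the strand, and reads of such a pair may have been exchanged.

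Of the 5 genes that act back on p53, all were called: 3 rose and 2 fell. The background for this and each role below is 35.4% of all tested genes called higher and 35.1% called lower. MDM2, the ubiquitin ligase that marks p53 for degradation, had 34.7, 32.7 and 29.5 CPM with DMSO and 39.7, 36.6 and 36.9 with NTX301. Every NTX301 library lay above every DMSO library, but the rise was small, at 0.22 ± 0.06 (log2, SE; edgeR adjusted p = 0.00737). Leaving out single libraries gave 0.15 to 0.27, with the lowest value when DMSO replicate 3 was left out. MDM4, an inhibitory partner of p53 related to MDM2, moved the other way, from 27.6, 28.6 and 33.1 CPM to 20.8, 19.7 and 21.5. Its log2 change was -0.52 ± 0.07 (edgeR adjusted p = 4.6e-05). In TPM this was not so: the groups overlapped (5.24, 4.74 and 5.93 against 4.91, 3.69 and 6.01). The log2(TPM + 1) test gave -0.12 with an adjusted p of 0.519, where the alternatives ranged from 2.2e-07 to 0.519. TPM differs from CPM by scaling as well as by length, and without a scaling factor the log2 change in counts was -0.32.

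The remaining feedback genes also split. PPM1D, a phosphatase that removes activating phosphates from p53, rose from 4.98, 4.21 and 3.95 CPM to 6.53, 6.45 and 5.52 (log2 0.49 ± 0.13, edgeR adjusted p = 0.00449). FBXO22, a substrate receptor of a ubiquitin ligase, rose from 47.7, 47.5 and 44.3 CPM to 62.2, 60.1 and 57.9 (log2 0.37 ± 0.05, edgeR adjusted p = 2.6e-05). Another gene, NRG4, overlaps 16.2% of the FBXO22 exon bases on the other strand and had a log2 change of -0.31. CCNG1 encodes cyclin G1, which brings a phosphatase to MDM2. It was the most abundant member per length with DMSO, at 248.00, 249.88 and 255.61 TPM, and stood at 172.46, 172.14 and 168.65 TPM with NTX301. In CPM it fell from 364, 357 and 359 to 217, 218 and 202 (log2 -0.76 ± 0.04, edgeR adjusted p = 1.2e-08), the smallest adjusted p among the members that fell.

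Genes linked to cell death moved in both directions. Of 8 members, 6 were tested, of which 3 rose and 3 fell, with a median log2 change of -0.01. AEN, a nuclease that takes part in apoptosis, had 29.3, 29.4 and 25 CPM with DMSO and 117, 116 and 116 with NTX301. The libraries of each group lay close together and far from the other group. The change was 4.15-fold (log2 2.05 ± 0.06, edgeR adjusted p = 8.5e-11), the largest of all members. In TPM, AEN went from 15.67, 16.16 and 14 to 72.89, 72.06 and 75.83. The gene lies at chr15:88621296-88632282 (GENCODE 29, GRCh38).

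TP53INP1, a stress protein of the nucleus and of autophagy, fell the most. It had 49.4, 43.7 and 47.2 CPM with DMSO and 21.4, 20.6 and 25.5 with NTX301, a 2.08-fold fall (log2 -1.05 ± 0.08, edgeR adjusted p = 1.7e-07). CYFIP2, a subunit of the complex that steers actin branching, was at 27.1, 25.7 and 27.8 CPM and then at 13.1, 14 and 13.5 (log2 -0.98 ± 0.06, edgeR adjusted p = 3.8e-08). For both genes the groups were far apart compared with the spread within them. PIDD1, the scaffold on which caspase-2 is activated, fell from 35.5, 34.8 and 35.6 CPM to 25.9, 24.8 and 26.8 (log2 -0.45 ± 0.05). RPLP2 overlaps 1.82% of the PIDD1 exon bases on the other strand, is far more abundant (456 CPM with DMSO and 315 with NTX301), and fell as well, by 0.53 on the log2 scale.

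PHLDA3, which keeps the kinase AKT from the membrane, rose from 6.04, 6.5 and 6.12 CPM to 7.46, 8.85 and 9.49 (log2 0.47 ± 0.11, edgeR adjusted p = 0.00246). TRIAP1, a small mitochondrial protein that protects from apoptosis, rose from 19.9, 21.2 and 19.4 CPM to 27.4, 27.7 and 26.3 (log2 0.42 ± 0.06). SPATA18, which acts in the quality control of mitochondria, had 0 counts with DMSO and 1, 0 and 1 with NTX301. EDA2R, a receptor for ectodysplasin A2, had 0 counts in all 6 libraries. A count of 0 over a group allows up to 0.0439 CPM with DMSO and 0.0395 CPM with NTX301, for counting error only (3 counts over the group).

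All 3 DNA repair genes were called, beside the background of 35.4% of all tested genes called higher and 35.1% called lower. DDB2, which recognises ultraviolet lesions for nucleotide excision repair, had 10.9, 10.7 and 10.8 CPM with DMSO and 20.04, 18.1 and 18.6 with NTX301. This 1.75-fold rise (log2 0.81 ± 0.07, edgeR adjusted p = 8.6e-07) was the next largest after AEN. POLH, the polymerase that copies past such lesions, rose from 12.8, 12.0 and 13.2 CPM to 15.6, 16.9 and 16.1 (log2 0.36 ± 0.07). XPC, which detects distorted DNA in the same repair pathway, fell from 43.8, 44.8 and 45.7 CPM to 35.1, 32.3 and 36.2 (log2 -0.37 ± 0.05, edgeR adjusted p = 4.9e-05). The XPC fall was not called with log2(TPM + 1), at -0.16 and an adjusted p of 0.0771 (alternatives from 7.3e-07 to 0.0771). LSM3, which overlaps 6.63% of the XPC exon bases on the other strand, had a log2 change of 1.04.

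Of the 5 genes of metabolism and oxidant defence, 3 rose, 1 fell and 1 was not called. TIGAR, a sugar phosphatase that slows glycolysis, had 11.5, 11.5 and 11.9 CPM with DMSO and 18.2, 18.3 and 18.8 with NTX301. The groups were well apart, with a log2 change of 0.66 ± 0.07 (edgeR adjusted p = 2.5e-06). A gene without a symbol on the same strand shares 42.6% of the TIGAR exon bases but reached only 0.896 CPM. TP53I3, a quinone oxidoreductase, rose from 16.1, 16.4 and 16.0 CPM to 21.8, 22.1 and 21.2 (log2 0.42 ± 0.06).

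The sestrins SESN1 and SESN2 restrain the growth kinase mTORC1. SESN2 rose from 16.2, 15.5 and 15.1 CPM to 18.9, 20.4 and 19.2 (log2 0.32 ± 0.06, edgeR adjusted p = 7.3e-04). SESN1 had 7.57, 5.12 and 7.28 CPM against 6.37, 7 and 7.12, with overlapping groups and a log2 difference of 0.04 ± 0.14 (edgeR adjusted p = 0.808). Its sign rests on DMSO replicate 2, the lowest DMSO library, without which the difference was -0.13. FDXR, which passes electrons to mitochondrial ferredoxins, fell from 13.8, 14.2 and 12.5 CPM to 10.7, 10.7 and 11.6 (log2 -0.30 ± 0.08, edgeR adjusted p = 0.00569). FDXR was not called without a scaling factor (-0.09, adjusted p = 0.322) or with log2(TPM + 1) (-0.09, adjusted p = 0.331), and its alternatives ranged from 0.00189 to 0.331.

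Among the 6 genes of growth control and signalling, 3 rose, none fell and 3 were not called. PLK2, a kinase of the polo family induced by stress, went from 161, 154 and 149.5 CPM to 246, 239 and 251 (log2 0.66 ± 0.04, edgeR adjusted p = 3.4e-08). GDF15, a secreted stress cytokine, went from 93.6, 88.5 and 86.8 CPM to 146, 132 and 140.1 (log2 0.64 ± 0.05, edgeR adjusted p = 2.3e-07). Both were already abundant with DMSO, and no NTX301 library reached down to a DMSO library. PLK3, another polo kinase, rose from 6, 5.62 and 6.17 CPM to 7.54, 7.47 and 7.47 (log2 0.34 ± 0.09, edgeR adjusted p = 0.00693). DESeq2 did not call PLK3 (adjusted p = 0.0913, where the alternatives ranged from 2.7e-04 to 0.0913).

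The uncalled genes were BTG2, SUSD6 and ZMAT3. BTG2, which slows proliferation, had 8.12, 7.33 and 7.37 CPM against 8.06, 7.36 and 8.01, which overlap (log2 0.04 ± 0.09). SUSD6, a membrane protein, had 26.5, 27.8 and 24.6 CPM against 27.6, 28.3 and 29.5 (log2 0.11 ± 0.06, edgeR adjusted p = 0.105). ZMAT3, a zinc finger protein that binds RNA, had 45.0, 41.9 and 45.1 CPM against 47.9, 45.0 and 47.3 (log2 0.09 ± 0.05, edgeR adjusted p = 0.125). Leaving out single libraries gave 0.05 to 0.15 for SUSD6, lowest without DMSO replicate 3, 0.04 to 0.11 for ZMAT3, lowest without DMSO replicate 2, and -0.00 to 0.08 for BTG2, and none of the 3 was called in any of these fits. All 3 were called higher without a scaling factor, with log2 changes of 0.24, 0.32 and 0.29, and SUSD6 and ZMAT3 also with log2(TPM + 1).

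**Figure D2:**
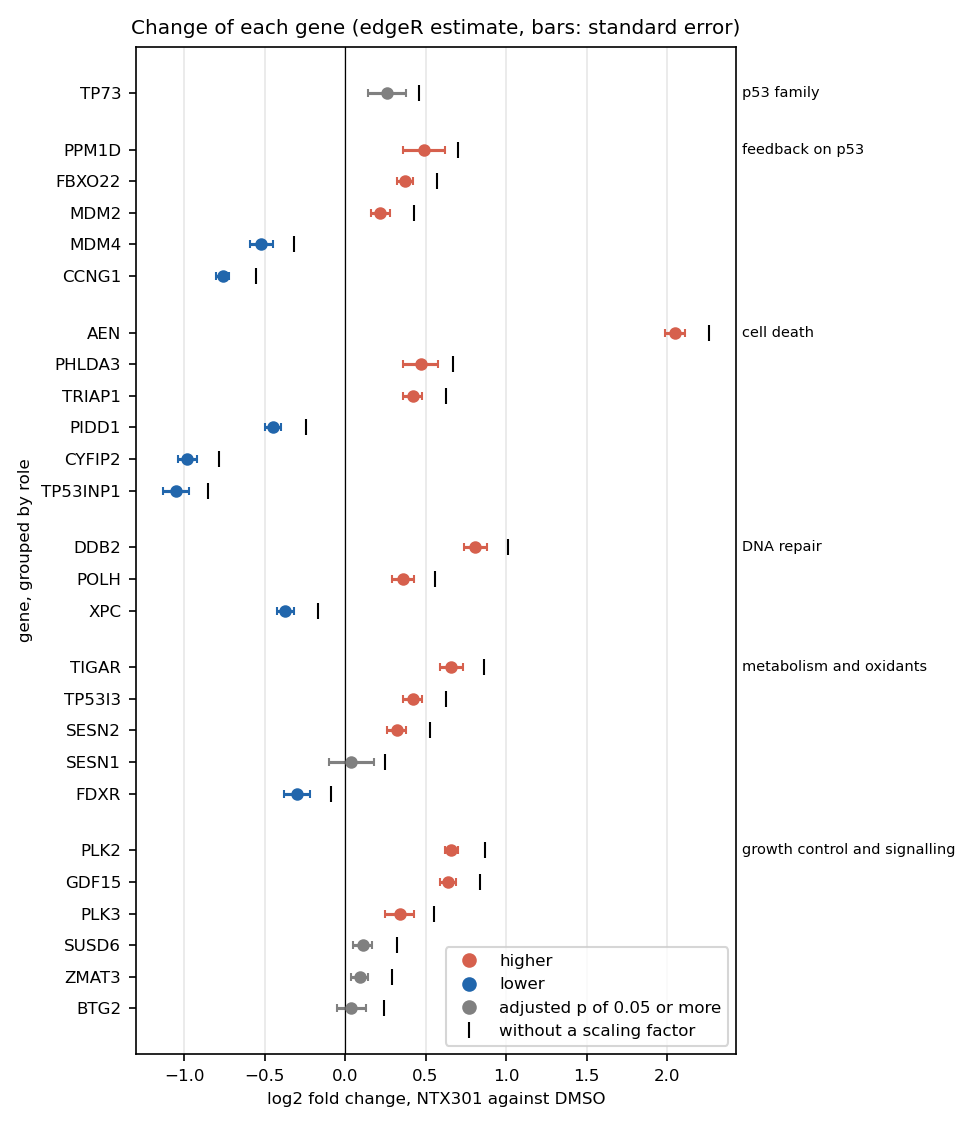
Log2 fold change (NTX301 against DMSO) of the 26 tested genes with its standard error, grouped by role; colour gives the call and the tick the value without a scaling factor. Every tick lies to the right of its point by 0.21, and AEN at 2.05 stands apart from the rest, of which DDB2 is the highest at 0.81.

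The order of the members per length changed between the groups. With DMSO the most abundant were CCNG1 (mean 251 TPM), GDF15 (131), PLK2 (93.8) and TRIAP1 (30.8), and TRIAP1 was followed by TP53I3 (22.9), XPC (20.6), PIDD1 (20.3) and FBXO22 (19.6). With NTX301 GDF15 led (233 TPM), ahead of PLK2 (172) and CCNG1 (171), whose libraries overlapped, and AEN (73.6) came next. Summed over the 5 feedback genes, TPM was 285 to 291 with DMSO and 224 to 232 with NTX301, most of it CCNG1. Summed over the 6 growth control genes, TPM went from a range of 248 to 254 to a range of 413 to 459.5. These sums carry no TMM factor: on the log2(TPM + 1) scale the median of all tested genes was 0.17 higher with NTX301.

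The deposited tables also give each gene's mean transcript length, weighted by the estimated abundance of its transcripts, which the choice of members did not use. It varied by more than 1 base for 18 of the 26 tested members, and the groups did not overlap for 4 of these. The background is 26.2% of the 11891 tested genes whose length varied, so 4 of 18 is not a higher share than among all genes. FBXO22, with 2 annotated transcripts, had lengths of 3884, 4041 and 3990 bases with DMSO and 3250, 3435 and 3335 with NTX301. Mean FBXO22 TPM was 19.6 with DMSO and 35.0 with NTX301, a ratio of 1.78 (log2 0.83). In counts the log2 change was 0.37, and 0.57 without a scaling factor, which TPM does not use. The shorter mean and the scaling thus both enter the larger difference in TPM. MDM2 was at 5485, 5536 and 5541 bases with DMSO and at 5097, 5450 and 5313 with NTX301. ZMAT3 was at 8085, 8224 and 8208 bases and then at 7485, 7879 and 7441. In all 3 genes every NTX301 library had a shorter mean than every DMSO library. GDF15 was longer by a few bases, at 1201 to 1202 against 1207 to 1209. For each of these 4 genes the exact two-sided permutation test gave p = 0.1, the smallest that 3 against 3 libraries allow, so no shift can pass a threshold of 0.05. MDM4, by contrast, had overlapping lengths that differed widely within each group.

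**Figure D3:**
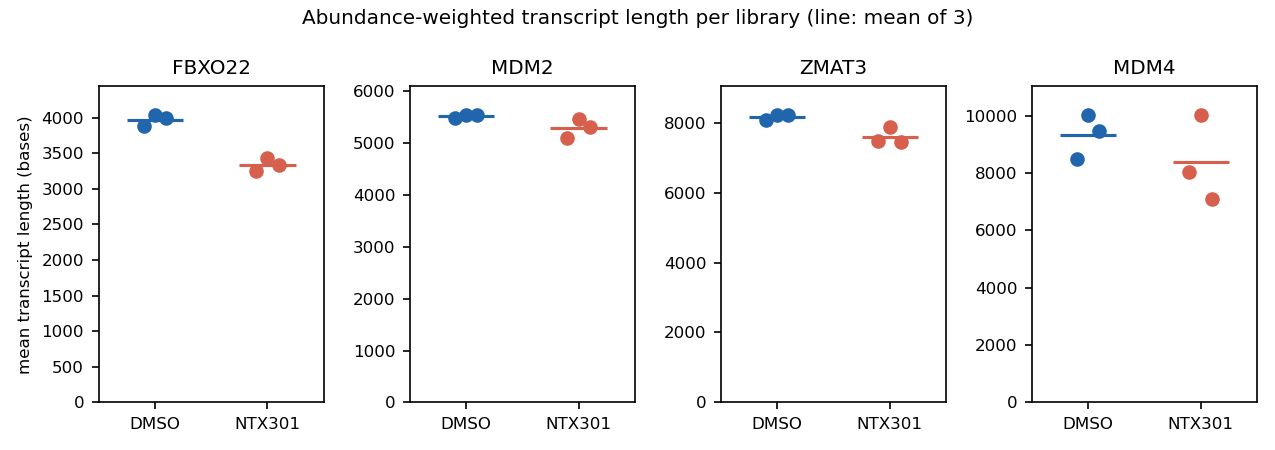
Abundance-weighted mean transcript length in bases for FBXO22, MDM2, ZMAT3 and MDM4, with 1 point per library and a line at the mean of 3 libraries. The groups are apart for FBXO22 (means of 3972 and 3340 bases), MDM2 and ZMAT3, and overlap for MDM4.

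Other genes of the pathway, from lists of named genes, were read beside the members. For each list the background is 35.4% of all tested genes called higher and 35.1% called lower. Of 20 upstream regulators and cofactors of p53, 19 were tested, of which 6 rose and 10 fell (5 fell without a scaling factor), with a median log2 change of -0.12. The largest changes were in CHEK1 and CHEK2, the kinases that signal DNA damage to p53. CHEK1 rose from 33.6 ± 0.122 to 93.0 ± 2.64 CPM (SD, n = 3; log2 1.47 ± 0.04) and CHEK2 from 4.06 to 10.5 CPM (log2 1.37 ± 0.09). CDKN2A, whose ARF product holds back MDM2, had 0 counts in all 6 libraries and was singled out after its values were seen.

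The 12 p53 targets of arrest and death, which the members leave out, held 7 genes that rose and 2 that fell (background 35.4% and 35.1%). CDKN1A encodes p21, an inhibitor of cyclin-dependent kinases. It had 8.55, 8.33 and 7.47 CPM with DMSO and 52.8, 50.7 and 55.7 with NTX301 (log2 2.70 ± 0.07), more than any member. FAS, a death receptor, went from 2, 2.21 and 2.17 CPM to 8.06, 8.10 and 8.91 (log2 1.97 ± 0.12). Of 18 tested genes on a list of further p53 targets, 7 rose and 6 fell (2 fell without a scaling factor). SERTAD1, a transcriptional coregulator, went from 9.65 to 25.7 CPM (log2 1.41 ± 0.09).

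A set of 12 cell cycle genes that p53 is known to lower through p21 and the DREAM repressor complex all rose. Each rose by 2-fold or more, where the background is 13.4% of all tested genes, and the median log2 change was 1.55. This list was chosen with earlier results of these data known, so the count is a description only. CDK1, the kinase that drives mitosis, had 42.7, 34.8 and 31.1 CPM with DMSO and 133, 137 and 130.4 with NTX301. CENPA, the histone that marks centromeres, had 13.4, 10.00 and 9.06 CPM against 41.8, 41.4 and 42.3. CDKN1A and these genes rose in the same libraries. Among 9 tested basal epithelial genes under p63, 4 rose and 4 fell: ITGB4, an integrin of hemidesmosomes, fell by 3.23 on the log2 scale, from 774 to 82.5 CPM, and KRT5, a basal keratin, rose from 0.331 to 1.73 CPM. Of 10 genes of the ATF4 pathway, a stress response that also reaches SESN2 and GDF15, 4 rose and 4 fell. ATF3 went from 4.16 to 21.1 CPM and DDIT3 from 16.6 to 53.2 CPM, while DDIT4, which changed as much as DDIT3 (log2 -1.68 and 1.68), went from 92.0 to 28.7 CPM.

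**Figure D4:**
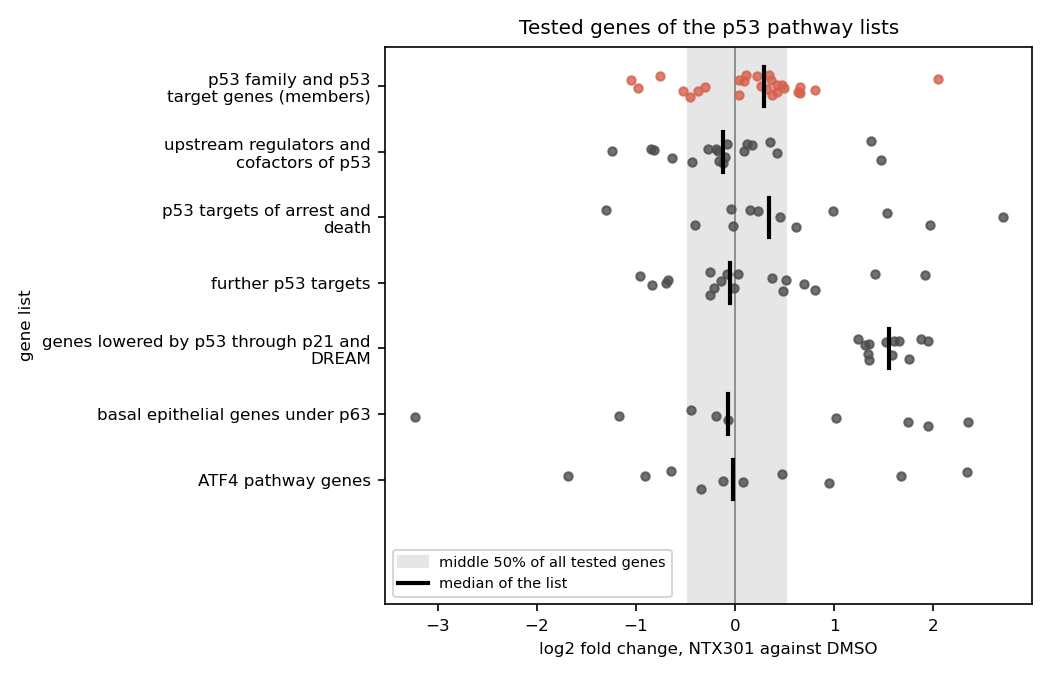
Log2 fold change (NTX301 against DMSO) of each tested gene in the members and 6 lists of pathway genes, with a bar at each median and a band for the middle 50% of all tested genes (-0.47 to 0.51). The 12 genes lowered by p53 through p21 and DREAM all lie to the right of the band, while the other lists spread to both sides of 0.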

How the data were processed

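RNA of OVCAR5 cells was sequenced after 3 days with DMSO or 100 nM NTX301, with 3 libraries per group, in libraries made with the NEBNext Ultra II RNA kit per the labels' protocols. The authors deposited 1 table per library with expected counts, TPM and mean transcript lengths, per the file headers. For the aligner, annotation and strand setting: not given in the sources used here. Each table had 62703 entries, of which 47 entries of the pseudoautosomal region of chromosome Y (0.0224% of counts) were added to their X copies. Expected counts were rounded, and genes with low counts were removed with filterByExpr, which left 19029 genes. The main test was edgeR 4.0.16's quasi-likelihood test with TMM factors and treatment as the only term, in R 4.3.3, with Benjamini-Hochberg adjustment over all genes tested. Standard errors were derived from the log2 fold change and its F statistic. DESeq2 1.42.0, limma 3.58.1 (voom, and log2 of the deposited TPM plus 1 or 0.1), other scaling and filter settings and leaving out each library were alternatives. Positions are from GENCODE 29, which held 58220 of the 62656 genes. In it all 34717 single-transcript genes with the same transcript version as the tables had the same length. Only matching versions were compared, so this does not identify the release that was used. The fit was also run on simulated data for this comparison (18597 genes tested). It recovered 50% of 66 genes changed 1.5-fold, 79.7% of 64 changed 2-fold and 96.9% of 65 changed 4-fold. It called 0.0652% of unchanged genes. Far fewer genes were changed there than were called in the data, so these shares need not hold for the data. All 29 members are described, and other genes are named as the 2 of each list with the largest called changes or where a result turns on them. A gene that this rule names is not reported here. The members and lists were chosen with earlier results of these data known.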

Additional observations from a re-analysis of the deposited data

How the results depend on the processing

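Of the 26 tested members, 17 kept their direction and their side of the threshold under all 14 alternatives. SESN1 and BTG2, neither called in the main test, changed sign when DMSO replicate 2 was left out: leaving out single libraries gave -0.13 to 0.14 for SESN1 and -0.00 to 0.08 for BTG2. No called member changed direction. TP73, MDM4, XPC, FDXR, BTG2, PLK3, SUSD6 and ZMAT3 gained or lost a call in at least 1 of them. With log2(TPM + 1) and log2(TPM + 0.1), 4318 and 4297 of all genes were lower, against 6677 in the main test, and 4 members were lower in both, against 7. The median log2 change of the members was 0.50 without a scaling factor, 0.46 with log2(TPM + 1) and 0.51 with log2(TPM + 0.1). Without a scaling factor and with both TPM scales, 5 upstream regulators (10 in the main test) and 2 further p53 targets (6 in the main test) were lower. The cause was not tested beyond the shift of all genes that those scales share. With the replicate number as a replicate block, 14 members were higher and 7 lower, as in the main test, and 6837 and 6749 of all genes. The samples share only a number: the correlations of same-numbered libraries were 0.0805, -0.0277 and 0.0431, and not every library correlated best with its own number. In the simulated data, with 3 libraries per group and these depths, smaller changes were called less often.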
